A study of Mus musculus with 10 samples.

Results

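The 10 genes described here act on the triglyceride store of the cell: Ces1d, Pnpla2, Lipe and Mgll encode hydrolases, Abhd5 and G0s2 encode an activator and an inhibitor of lipolysis, Plin2, Plin4 and Plin5 encode droplet coat proteins, and Dgat2 encodes an enzyme of triglyceride synthesis. They were chosen by name, with their levels in these libraries and earlier results of the same data known, and no threshold was applied. All 10 were among the 45882 gene IDs in the files and among the 11358 gene IDs that were tested. Because the choice drew on the same levels, the values, confidence intervals and calls of these 10 genes, all from a fit across every tested gene ID, are given as a description and support nothing.

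Adult mice of strain C57BL/6 gave the left ventricles whose isolated cardiac myocytes were sequenced, and each of the 10 libraries was labelled with its own mouse number. There were 3 control libraries, 4 libraries from CTCF knockout mice and 3 libraries from mice with transverse aortic constriction (TAC), a band on the aorta that loads the ventricle with pressure. CTCF is a DNA-binding zinc finger protein that helps to form chromatin loops. The promoter that drives the knockout, the genotype of the TAC mice, the age beyond adult and the time after surgery are not given in the sources used here. The titles of the control libraries name neither a genotype nor a surgery. Levels are FPKM, fragments per kilobase of transcript and library size, summed over the transcripts of a gene and rescaled between libraries. They are therefore per length and can be compared between genes.

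The targeted gene Ctcf lay at 6.80 to 8.81 FPKM in the control libraries, 2.603 to 4.42 in the knockout and 5.22 to 7.32 in TAC, with no overlap between knockout and control. FPKM per library summed to between 582496 and 823272 before rescaling. The median coverage per FPKM, a relative measure of depth, ran from 3.90 to 6.09. The summed level of 10 cardiac myocyte markers was 37180 to 41705 FPKM in control, 31260 to 41516 in knockout and 33286 to 42484 in TAC libraries. The summed level of 10 endothelial markers was 76.7 to 107 FPKM in control, 101 to 174 in knockout and 115 to 175 in TAC. Of 10 smooth muscle and pericyte markers the sum was 555 to 705 FPKM in control, 633 to 755 in knockout and 850 to 1343 in TAC, where every library exceeded all others. The list itself was split: of 9 tested markers, 2 were called higher and 2 lower in TAC than in control (limma, adjusted p under 0.05). Their median difference was -0.10 on the log2(FPKM + 1) scale. Of 10 macrophage and leukocyte markers the sum was 47.4 to 65.5, 50.8 to 84.8 and 68.5 to 83.96 FPKM, and of 10 fibroblast markers 135 to 279, 202 to 327 and 229 to 286 FPKM, in the same order of groups. The sum of 7 erythroid markers was 288 to 1198 FPKM in control, 130 to 633 in knockout and 952 to 1677 in TAC. Of 5 tested, 3 were called lower in knockout than in TAC, beside 1.7% of all tested gene IDs. Against control, 4 of 9 tested fibroblast markers rose and 0 fell, in knockout and in TAC alike. Of 10 endothelial markers 3 rose in knockout and 0 in TAC. Their median difference was nevertheless 0.44 in knockout and 0.54 in TAC. Every knockout library lay above every control for 1 of them, and every TAC library for 5. Over all tested gene IDs these shares were 14.8% and 16.0%. Over all 58 tested markers, 11 rose and 7 fell in knockout, and 9 rose and 5 fell in TAC. The shares of all tested gene IDs were 10.6% and 10.2% in knockout, and 8.08% and 7.37% in TAC. The part of these markers in the results was not tested. In RNA of bulk cells, fewer cells of a type and less RNA per cell cannot be told apart. Sex was read from gene levels: a library was taken as male where the summed level of Y-linked genes exceeded that of Xist. Of the 4 libraries from male mice by this rule, 1 was control (replicate 2), 1 was knockout (replicate 4) and 2 were TAC (replicates 1 and 3).

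Triglyceride is held in the cell in lipid droplets, and the heart draws on it as a source of fatty acids for oxidation. Adipose triglyceride lipase (encoded by Pnpla2) removes the first fatty acid, hormone-sensitive lipase (Lipe) acts mainly on the diglyceride, and monoglyceride lipase (Mgll) completes the breakdown. The activator ABHD5, also called CGI-58, and the inhibitor G0S2 set the activity of the first lipase, and perilipin 5 (Plin5) binds both the activator and the lipase at the droplet surface. Ces1d, also called triacylglycerol hydrolase or Ces3, is a carboxylesterase of the endoplasmic reticulum known from liver and adipose tissue.

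RefSeq sequences upstream of the annotated start were matched by symbol for 8 of the 10 genes, with 11 start sites, on assembly GRCm38.p6. The lines below show the 250 bases before the start, 5′ to 3′ on the coding strand. They cover both Lipe start sites matched in RefSeq, whose transcripts were measured separately, and Abhd5, which rose in the knockout. The minor transcripts Lipe-203 and Lipe-204 are listed from further upstream and have no window here. Capitals mark the letters GGGCGG (GC box), CACGTG (E-box) and AGGTCA (nuclear receptor half-site) on either strand; adjacent GC boxes may overlap.
Lipe, upstream start, chr7:25395988-25396237, minus strand: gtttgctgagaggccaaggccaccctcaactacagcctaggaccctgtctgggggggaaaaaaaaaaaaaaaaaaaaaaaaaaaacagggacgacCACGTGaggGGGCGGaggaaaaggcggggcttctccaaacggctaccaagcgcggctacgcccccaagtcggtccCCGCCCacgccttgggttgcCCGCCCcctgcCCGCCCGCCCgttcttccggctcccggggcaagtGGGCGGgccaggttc
Lipe, downstream start, chr7:25390113-25390362, minus strand: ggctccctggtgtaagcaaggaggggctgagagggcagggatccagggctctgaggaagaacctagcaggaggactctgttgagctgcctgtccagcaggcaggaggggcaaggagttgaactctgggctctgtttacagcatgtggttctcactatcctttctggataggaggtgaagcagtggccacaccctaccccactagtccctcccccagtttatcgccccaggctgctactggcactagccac
Abhd5, chr9:122351366-122351615, plus strand: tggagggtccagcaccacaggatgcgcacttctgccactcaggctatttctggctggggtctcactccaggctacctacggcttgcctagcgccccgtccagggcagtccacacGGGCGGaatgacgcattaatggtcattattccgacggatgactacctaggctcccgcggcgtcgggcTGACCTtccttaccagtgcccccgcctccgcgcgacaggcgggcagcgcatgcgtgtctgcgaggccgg

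The upstream start of Lipe held 6 GC boxes and 1 E-box, and the downstream start held none of the 3 motifs. The Abhd5 window, before a start at 122351616, held 1 GC box and 1 half-site. The most abundant Abhd5 transcript, Abhd5-201, is listed from 122351730, so the window does not lie directly before it. Among 32851 RefSeq promoter windows of the same length, 32.7% held a GC box, 6.02% an E-box and 14.02% a half-site. GC content was 62.8% and 58.8% in the Lipe windows and 64.8% in the Abhd5 window, against a median of 52.4% over all windows. Neither the CTCF core consensus, found in 0.508% of all windows, nor TATAAA, found in 12.4%, matched in any of the 11 windows of these genes. A match describes letters only, and no match says only that the letters are not in this window.

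In the comparison of CTCF knockout with control, 5 of the 10 genes passed the threshold (limma, adjusted p under 0.05): Abhd5 rose, and Ces1d, Lipe, Mgll and Dgat2 fell. The share called over all tested gene IDs was 20.8% (10.6% higher and 10.2% lower), and nothing is read from the difference, since the genes were chosen with these levels known. The split of all calls depended on the rescaling: 1203 were higher and 1159 lower with it, and 1670 and 603 without it, where the median difference of all tested gene IDs was 0.10 in place of -0.01. The knockout libraries did not overlap the control libraries for 7 of the 10 genes, 1 higher and 6 lower, against 30.8% of all tested gene IDs (14.8% higher and 16.0% lower). The median difference of the 10 genes was -0.52 on the log2(FPKM + 1) scale, against -0.01 for all tested gene IDs.

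In the comparison of TAC with control, Ces1d, Lipe and Dgat2 fell and none of the 10 genes rose, where 15.5% of all tested gene IDs were called (8.08% higher and 7.37% lower). These were 918 higher and 837 lower calls, against 1016 and 513 without rescaling. The TAC libraries did not overlap the controls for 4 genes, all lower (Ces1d, Lipe, Mgll and Dgat2), against 31.6% of all tested gene IDs (15.7% lower and 16.0% higher). The median difference was -0.50. Both comparisons use the same 3 control libraries, so they are not independent of each other. Between knockout and TAC, limma called 0 of the 10 genes, with 3 at an unadjusted p under 0.05, as were 2042 of all 11358 tested gene IDs. At the threshold 3.28% of all tested gene IDs were called (1.58% higher and 1.7% lower in the knockout), 179 higher and 193 lower, against 212 and 120 without rescaling. The groups did not overlap for 2 genes, Ces1d and Plin5, both lower in the knockout, against 18.1% of all tested gene IDs (8.43% higher and 9.64% lower).

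**Figure D1:**
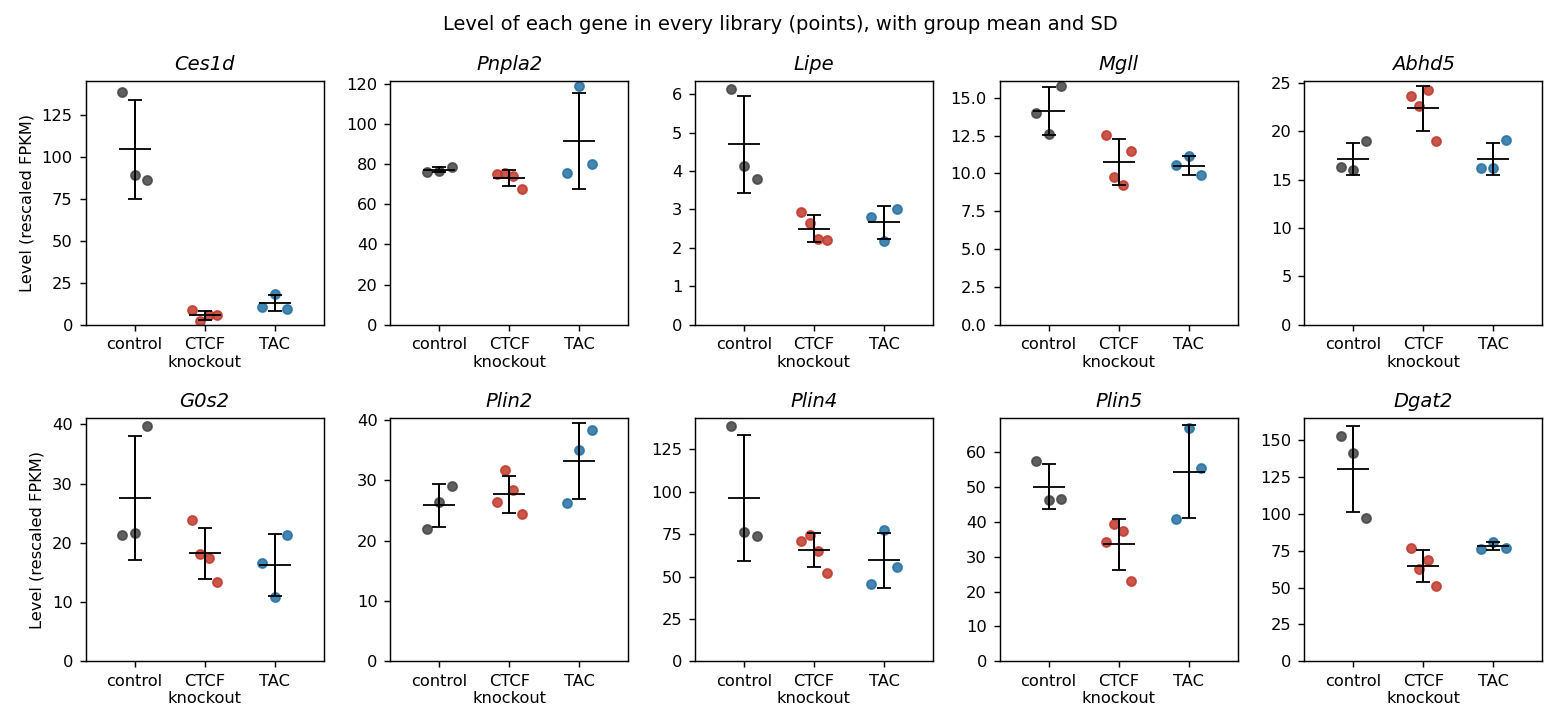
Level of each of the 10 genes (y axis, rescaled FPKM, linear from 0) in every library (points) of the control, CTCF knockout and TAC groups, with the group mean (line) and SD (bars). Ces1d sits at 85.9 FPKM or more in the 3 controls and at 18.1 FPKM or less in the other 7 libraries, while Pnpla2 lies between 67.4 and 79.9 FPKM in all libraries but TAC replicate 2.

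Ces1d (ENSMUSG00000056973, chr8:93166068-93197838, minus strand, mm10) had the widest range of the 10 genes, 64.5-fold between its highest and lowest library. It measured 138, 88.9 and 85.9 FPKM in control mice, 8.80, 2.14, 5.94 and 5.62 in knockout mice and 10.6, 18.1 and 9.64 in TAC mice. All 7 libraries of the other groups lay far below all 3 controls, and all 4 knockout libraries lay below all 3 TAC libraries. The means were 104 ± 29.4 (SD, n = 3), 5.62 ± 2.73 (SD, n = 4) and 12.8 ± 4.63 FPKM (SD, n = 3), which put the knockout at 5.39% and TAC at 12.2% of the control mean. The difference from control on the log2(FPKM + 1) scale was -4.07 in the knockout (SE 0.337, 95% confidence interval -4.81 to -3.33) and -2.95 in TAC (SE 0.361, -3.74 to -2.16). On this scale the change of a low gene appears smaller than it is. The difference of knockout from TAC was -1.12 (95% confidence interval -1.85 to -0.38), a difference that was not called.

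Nearly all of the Ces1d level came from one protein-coding transcript, Ces1d-201, with 94.7% of the gene's FPKM on average. Reads of this family could be shared between copies: of 1955 windows of 50 nt along Ces1d-201, 25 (1.28%) also occurred in Ces1b, Ces1f or Ces1g, and of 1905 windows of 100 nt, the read length, 0 did. The other carboxylesterase genes in the files lay at or below 0.728 FPKM in every library. Ces1e reached 0.317 FPKM, Ces1f 0.196 and Ces1g 0.0404 at most. Control libraries held Ces1c at 0.164, 0.141 and 0.189 FPKM and Ces1b at 0.0187, 0.0353 and 0.0753, and both were listed at 0 in all 7 knockout and TAC libraries. Ces1a was listed above 0 in a single library, at 0.0186 FPKM.

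Ces1d is also expressed in liver, so liver markers were measured beside it. Alb (albumin) had 3.80, 4.15 and 3.49 FPKM in control libraries and 0.0516 FPKM or less in the other 7, 4 of which were listed at 0. The sum of 14 hepatocyte markers was 16.6 to 21.8 FPKM in control, 7.69 to 17.0 in knockout and 14.02 to 15.3 in TAC, and its largest part was Trf, at 5.65 to 10.98 FPKM over all libraries. Of the 14 markers, 4 were listed at 0 in all knockout libraries and 4 in all TAC libraries, against 0 in all controls. In the controls Ces1d was 21.4 to 36.4 times the level of Alb. The part of these transcripts in the Ces1d difference was not tested.

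Ces1d was set against Pnpla2 as a ratio within a library, which does not depend on the rescaling. The ratio of Ces1d to Pnpla2 was 1.81, 1.16 and 1.09 in the controls, so the carboxylesterase transcript was the more abundant. In the knockout the ratio was 0.117, 0.0283, 0.0804 and 0.0834, and in TAC it was 0.140, 0.152 and 0.121. Ces1d made up 18.8% of the summed FPKM of the 10 genes in the controls, 1.75% in the knockout and 3.35% in TAC. That sum was 643, 510 and 489 FPKM in control libraries, 355, 339, 332 and 270 in knockout libraries and 321, 438 and 370 in TAC.

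By the root mean square difference of centred log2(FPKM + 1) levels over the 10 libraries, the tested genes most like Ces1d were Gm13339 (0.75), Phkg1 (0.88), Alb (0.89), Pfkfb1 (0.95) and Lgals4 (0.97). Gm13339 lay at 184 ± 34.4 FPKM in control (SD, n = 3), 31.2 ± 10.03 in knockout (SD, n = 4) and 44.1 ± 15.1 in TAC (SD, n = 3). Phkg1 lay at 9.15, 1.43 and 2.56 FPKM and Lgals4 at 28.5, 6.62 and 6.55 FPKM in the same order.

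Pnpla2 (ENSMUSG00000025509, chr7:141455198-141460743, plus strand), the first lipase of the droplet, measured 76.2, 76.6 and 78.6 FPKM in control libraries, 75.2, 75.7, 73.8 and 67.4 in knockout libraries and 75.7, 118.7 and 79.9 in TAC libraries. The knockout libraries were all slightly below the controls, and 1 TAC library, replicate 2, stood far above the rest. The difference from control was -0.08 in the knockout (95% confidence interval -0.38 to 0.23) and 0.21 in TAC (-0.11 to 0.54), and neither was called. Without rescaling the knockout difference was 0.05, so its direction depends on the scaling. The transcript with the largest share, Pnpla2-201 (38.7% of FPKM), is annotated as a target of nonsense-mediated decay.

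Lipe (ENSMUSG00000003123, chr7:25379527-25398710, minus strand) had the lowest mean of the 10 genes in each group. It measured 6.15, 4.13 and 3.80 FPKM in control mice, 2.94, 2.64, 2.24 and 2.198 in knockout mice and 2.81, 2.17 and 3.01 in TAC mice. Every knockout and TAC library lay below every control. The means were 4.69 ± 1.27 (SD, n = 3), 2.50 ± 0.352 (SD, n = 4) and 2.66 ± 0.440 FPKM (SD, n = 3), and the differences from control were -0.68 (SE 0.1504) in the knockout and -0.62 (SE 0.161) in TAC. The TAC call was lost without control replicate 1 or without TAC replicate 2, with differences of -0.52 to -0.45.

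The start sites shown above separate the main Lipe transcripts. Lipe-202, from the downstream start, measured 5.15, 3.69 and 3.08 FPKM in control libraries, 2.53, 2.05, 1.44 and 1.54 in knockout libraries and 1.78, 1.71 and 2.45 in TAC libraries. All 7 values lay below all 3 controls. Lipe-201, from the upstream start, measured 0.933, 0.399 and 0.691 FPKM in control libraries, 0.369, 0.593, 0.802 and 0.624 in knockout libraries and 1.01, 0.374 and 0.548 in TAC libraries, and the groups overlapped. Lipe-202 made up 84.8 ± 4.30% of the gene in control (SD, n = 3), 74.4 ± 9.51% in knockout (SD, n = 4) and 74.5 ± 9.70% in TAC (SD, n = 3), and these shares overlapped. The confidence bounds that Cufflinks lists reached 51.5% of the value for Lipe-201 and 23.8% for Lipe-202. The difference between the transcripts was not tested.

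**Figure D2:**
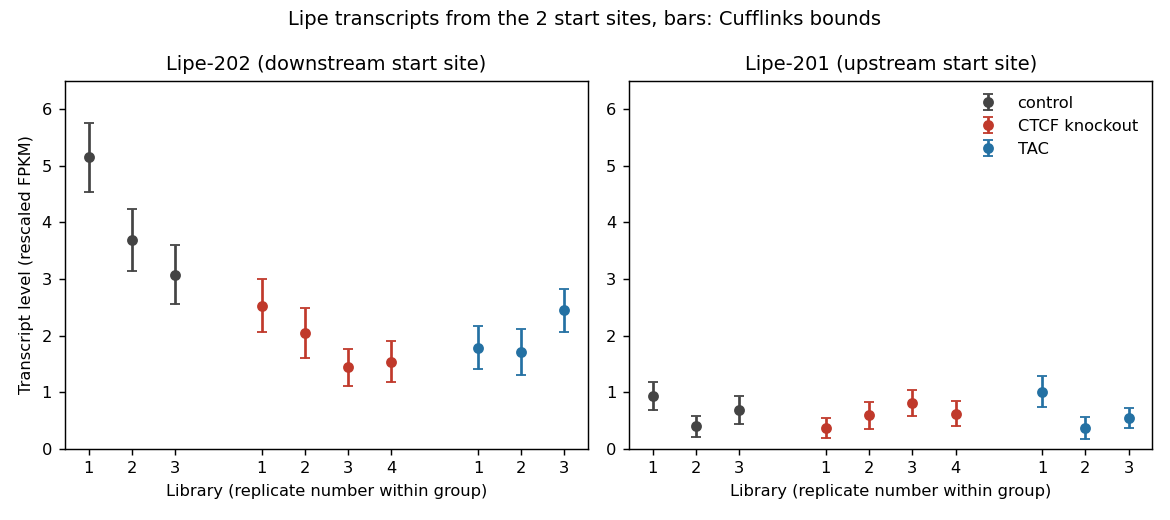
Level of the Lipe transcripts from the downstream start (left) and the upstream start (right) in every library (x axis, replicate number within the group), in rescaled FPKM. Points are Cufflinks estimates and bars are the bounds Cufflinks lists; Lipe-202 lies at 3.08 FPKM or more in the controls and at 2.53 FPKM or less elsewhere, while Lipe-201 overlaps between groups.

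Mgll (ENSMUSG00000033174, chr6:88724412-88828360, plus strand), which cleaves monoglycerides, measured 13.97, 12.6 and 15.8 FPKM in control libraries, 12.5, 9.79, 9.21 and 11.5 in knockout libraries and 10.5, 11.1 and 9.89 in TAC libraries. Both groups lay below the controls in every library, the highest knockout library only just. The knockout difference was -0.37 (SE 0.118) and was called, and the TAC difference was -0.39 (SE 0.127) and was not. The knockout call held in 6 of 23 other analyses and was lost, with differences of -0.39 to -0.29, when any library but control replicate 2 or knockout replicate 1 was left out.

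Abhd5 (ENSMUSG00000032540, chr9:122351608-122381524, plus strand), the activator of the first lipase, measured 16.3, 16.0 and 19.0 FPKM in control libraries, 23.6, 22.6, 24.3 and 19.0 in knockout libraries and 16.2, 16.2 and 19.1 in TAC libraries. The knockout libraries were higher, with the lowest just above the highest control, and the TAC libraries covered the range of the controls. The means were 17.1 ± 1.65 (SD, n = 3), 22.4 ± 2.35 (SD, n = 4) and 17.2 ± 1.66 FPKM (SD, n = 3), and Abhd5 rose in the knockout by 0.37 (SE 0.112). The TAC difference was 0.00 (95% confidence interval -0.26 to 0.27). The knockout call was lost, with differences of 0.32 to 0.36, when control replicate 1 or 2, or knockout replicate 1, 2 or 3, was removed. It was also lost by the most abundant transcript alone and with no filter on the mean level. That transcript, Abhd5-201 (63.9% of FPKM), is annotated as a target of nonsense-mediated decay and averaged 10.7 FPKM in control and 14.1 in knockout. The protein-coding Abhd5-204 averaged 5.14 and 6.35 FPKM. The antisense gene A730085K08Rik overlaps Abhd5 at 5.56 FPKM on average, and the strand setting of the counting is not given in the sources used here.

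G0s2 (ENSMUSG00000009633, chr1:193272161-193273217, minus strand), the inhibitor of the same lipase, measured 21.3, 21.7 and 39.7 FPKM in control libraries, 23.9, 18.1, 17.4 and 13.4 in knockout libraries and 16.6, 10.9 and 21.3 in TAC libraries. Control replicate 3 stood apart at the top and knockout replicate 1 overlapped the controls. The differences were -0.54 (95% confidence interval -1.11 to 0.03) in the knockout and -0.71 (-1.32 to -0.10) in TAC, and neither was called.

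The ratio of the activator to the inhibitor, Abhd5 over G0s2, was 0.765, 0.739 and 0.479 in the controls, 0.988, 1.25, 1.40 and 1.41 in the knockout and 0.975, 1.48 and 0.896 in TAC. All 7 knockout and TAC libraries lay above all 3 controls. The ratio of the lipase itself to the inhibitor, Pnpla2 over G0s2, did not separate knockout from control. It was 3.58, 3.53 and 1.98 in the controls, 3.14, 4.19, 4.25 and 5.01 in the knockout and 4.55, 10.9 and 3.75 in TAC. Both ratios were chosen with the levels known and have no test.

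**Figure D3:**
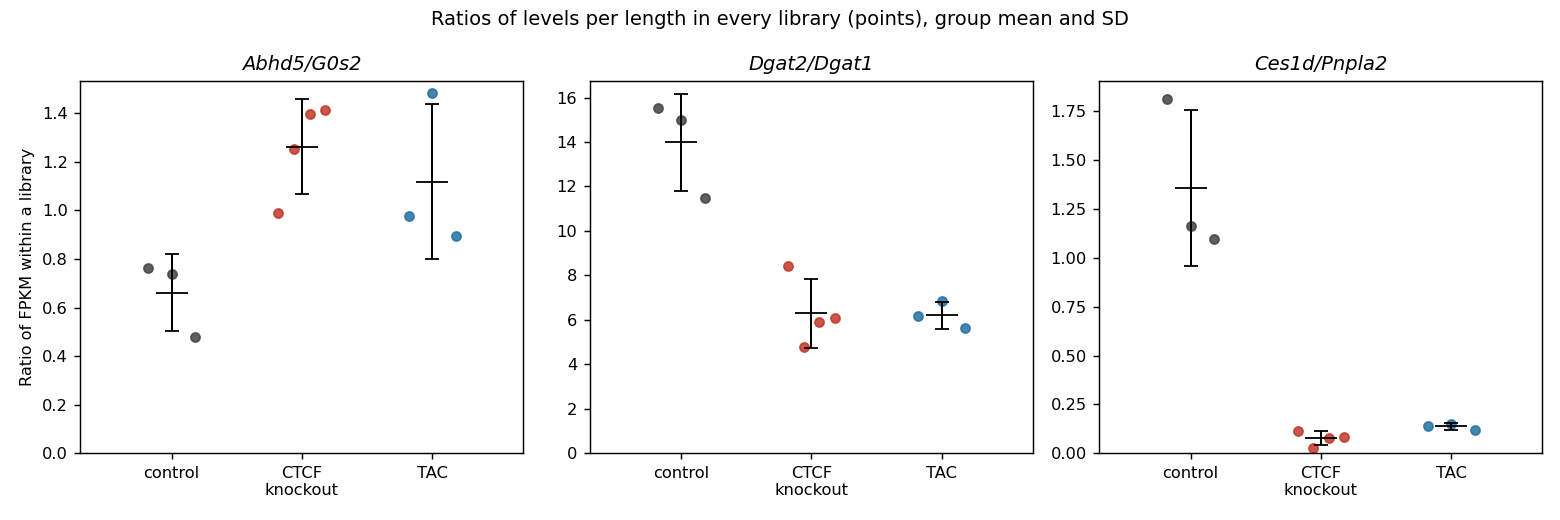
Ratios of FPKM within each library (y axis, linear from 0; points) by group, with mean (line) and SD (bars), for Abhd5 over G0s2, Dgat2 over Dgat1 and Ces1d over Pnpla2. Abhd5 over G0s2 is at most 0.765 in the controls and at least 0.896 elsewhere; the other ratios are higher in every control than in every other library.

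Of the droplet coat genes none was called in either comparison. Plin2 (ENSMUSG00000028494, chr4:86648386-86670060, minus strand), the perilipin found on droplets of most cells, measured 22.0, 26.5 and 29.0 FPKM in control libraries, 26.3, 31.6, 28.3 and 24.5 in knockout libraries and 26.2, 35.0 and 38.4 in TAC libraries. The differences were 0.10 (95% confidence interval -0.22 to 0.42) in the knockout and 0.34 (0.00 to 0.68) in TAC, with overlapping groups. The non-coding transcript Plin2-208 made up 33.4% of the gene's FPKM. By the most abundant transcript alone, the knockout difference was -0.19, so its direction depends on how transcripts are combined.

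Plin4 (ENSMUSG00000002831, chr17:56100591-56109803, minus strand) and Plin5 (ENSMUSG00000011305, chr17:56111601-56117596, minus strand) are neighbours 1797 bp apart. Plin4 measured 139, 76.3 and 73.8 FPKM in control libraries, 71.3, 74.8, 64.9 and 52.3 in knockout libraries and 45.6, 77.5 and 55.9 in TAC libraries. Control replicate 1 was high and the groups overlapped, with differences of -0.49 (95% confidence interval -1.003 to 0.02) and -0.65 (-1.20 to -0.11).

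Plin5, the perilipin of oxidative tissues, measured 57.5, 46.1 and 46.4 FPKM in control libraries, 34.3, 39.5, 37.3 and 23.1 in knockout libraries and 40.7, 67.0 and 55.5 in TAC libraries. All 4 knockout libraries lay below all controls and all TAC libraries. The knockout difference was -0.58 (95% confidence interval -1.02 to -0.15) from control and -0.68 (-1.11 to -0.25) from TAC, and the TAC difference from control was 0.10 (-0.37 to 0.56). Neither knockout difference was called, but both were with sex as a term in the model, and the difference from control also without TAC replicate 1.

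The ratio of Plin4 to Plin5 was 1.59 to 2.42 in the controls, 1.74 to 2.26 in the knockout and 1.01 to 1.16 in TAC. The TAC libraries thus lay below all 7 others. The transcript Plin5-201 held 66.6% of Plin5 in control, 74.7% in knockout and 60.1% in TAC on average, and the rest came from Plin5-202.

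Dgat2 (ENSMUSG00000030747, chr7:99153663-99182713, minus strand), which adds the last fatty acid to diglyceride, was the most abundant of the 10 genes in the controls. It measured 152, 141 and 97.1 FPKM in control libraries, 76.6, 62.4, 68.3 and 50.7 in knockout libraries and 75.9, 81.0 and 77.0 in TAC libraries. Every knockout and TAC library was below every control. The means were 130 ± 29.2 (SD, n = 3), 64.5 ± 10.9 (SD, n = 4) and 78.0 ± 2.66 FPKM (SD, n = 3), with differences from control of -0.99 (SE 0.166) and -0.71 (SE 0.178). The TAC call was lost, with differences of -0.70 to -0.58, without control replicate 1 or 2 or without TAC replicate 1 or 3.

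Dgat1, the other enzyme of this step, lay at 9.23 ± 0.712 FPKM in control (SD, n = 3), 10.5 ± 2.21 in knockout (SD, n = 4) and 12.6 ± 0.976 in TAC (SD, n = 3). The ratio of Dgat2 to Dgat1 was 15.5, 15.0 and 11.5 in the controls, 8.44, 4.77, 5.89 and 6.10 in the knockout and 6.17, 6.84 and 5.62 in TAC. Dgat1 was not called in either comparison (limma, adjusted p = 0.485 and 0.0861).

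**Figure D4:**
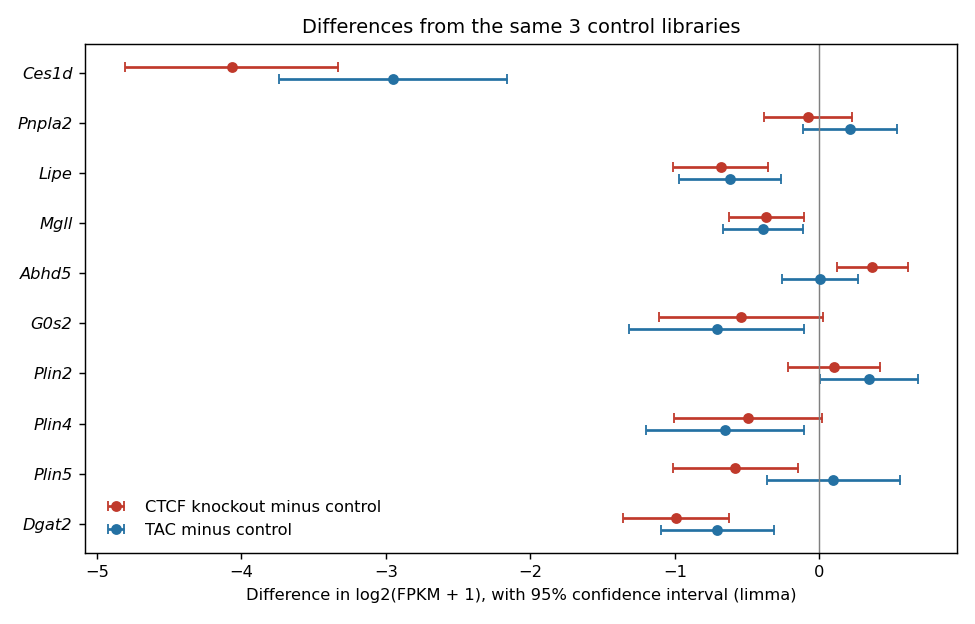
Difference of each of the 10 genes from the same 3 control libraries (x axis, log2(FPKM + 1) units) in CTCF knockout and TAC, with the 95% confidence interval from limma. Ces1d lies at -4.07 and -2.95, and the other 9 genes lie between -0.99 and 0.37.

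The order of the levels differed between the groups mainly in the place of Ces1d. In the controls Dgat2 (130 FPKM), Ces1d (104) and Plin4 (96.4) led on average, and their libraries overlapped. Pnpla2 (77.1) overlapped Plin4 and was the higher of the pair in 2 of 3 controls, so its place below Plin4 rests on control replicate 1. Plin5 (50.0) followed, then G0s2 (27.6) and Plin2 (25.8), which overlapped, and then Abhd5, Mgll and Lipe. In the knockout Pnpla2 (73.0), Plin4 (65.8) and Dgat2 (64.5) led with overlapping libraries, and only Lipe lay below Ces1d on average. In TAC Pnpla2 (91.4) and Dgat2 (78.0) led on average with overlapping libraries, and Dgat2 was the higher in TAC replicate 1 (75.9 against 75.7). The highest Plin4 library in TAC (77.5) overlapped both, and only Mgll and Lipe lay below Ces1d on average.

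Sex was not balanced between the groups. Among female libraries only, 2 control and 3 knockout, Ces1d lay at 85.9 to 138 against 2.14 to 8.80 FPKM and Lipe at 3.80 to 6.15 against 2.24 to 2.94. Mgll lay at 13.97 to 15.8 against 9.21 to 12.5, Dgat2 at 97.1 to 152 against 62.4 to 76.6, and Abhd5 at 16.3 to 19.0 against 22.6 to 24.3. These called genes did not overlap over all control and knockout libraries, so any subset of libraries is separate too. The ranges therefore cannot show the part of sex. TAC replicate 2, the only TAC library from a female, was the highest TAC library for Ces1d, Pnpla2, Mgll, Plin4, Plin5 and Dgat2. Knockout replicate 4, the only knockout library from a male, was the lowest of its group for all of the 10 genes but Ces1d and Mgll, and it also had the lowest sum of cardiac myocyte markers. Sex and animal cannot be told apart in either library.

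Adipocytes carry several of these genes at high levels, so their markers were measured in the same libraries. Adipoq reached 0.122 FPKM, Plin1 0.0345, Cfd 0.242 and Cidec 0.0650 in any library, and Lep was listed at 0 in all 10. The sum of 12 adipocyte markers was 82.0 to 114 FPKM in control, 71.5 to 109 in knockout and 83.5 to 109 in TAC, and nearly all of it was Fabp4 and Cidea. The defining adipocyte markers were thus at or near 0 in every group.

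Of 111 other genes of lipid handling in 5 lists, 76 were tested. In the knockout 4 rose, 18 fell and 54 were not called, with a median difference of -0.19 against -0.01 for all tested gene IDs. These shares, 5.26% higher and 23.7% lower, stood beside 10.6% and 10.2% of all tested gene IDs. In TAC 2 rose, 8 fell and 66 were not called, with a median of -0.02. Here 2.63% rose and 10.5% fell, beside 8.08% and 7.37% of all tested gene IDs. The share that rose was thus below the background and the share that fell somewhat above it. These TAC counts are small, and nothing is read from them. Between knockout and TAC, 0 were higher and 6 were lower in the knockout: Nceh1, Fitm2, Agpat3, Acsl6, Lpl and Cd36, which is 7.89% beside 1.7% of all tested gene IDs. The same background shares apply to each of the 5 lists, whose counts are small. The lists were chosen with earlier results of these data known.

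Among 11 tested lipid hydrolases, phospholipases included, Ddhd1, a phospholipase, rose in the knockout, and Pnpla8, Abhd6 and Nceh1 fell. Nceh1, a cholesteryl ester hydrolase, averaged 75.7 ± 7.21 FPKM in control (SD, n = 3) and 43.3 ± 1.15 in the knockout (SD, n = 4), a difference of -0.79 (limma, adjusted p = 0.000333), and lay lower in 4 of 4 libraries. Pnpla8, a calcium-independent phospholipase, averaged 49.3 ± 1.91 FPKM in control (SD, n = 3) and 31.7 ± 1.95 in the knockout (SD, n = 4), a difference of -0.62 (limma, adjusted p = 0.000612). In TAC, Pnpla8 (35.4 ± 1.71 FPKM, SD, n = 3) and Nceh1 (59.5 ± 5.92 FPKM, SD, n = 3) fell and none rose. The TAC call of Nceh1 (adjusted p = 0.0495) was lost when any library but TAC replicate 2 was left out, and the knockout call of Abhd6 when control replicate 1 or 3 or knockout replicate 1, 2 or 3 was left out, with adjusted p of 0.0564 to 0.142 and 0.0521 to 0.0674.

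Among 16 tested genes of the droplet coat, fusion and budding, Fitm2 had the smallest adjusted p in the knockout against control. Fitm2 acts in droplet budding from the endoplasmic reticulum. It went from 63.0 ± 0.692 FPKM in control (SD, n = 3) to 27.6 ± 1.37 in the knockout (SD, n = 4) and 45.4 ± 6.02 in TAC (SD, n = 3). Its differences were -1.16 (limma, adjusted p = 3.44e-05) and -0.47 (adjusted p = 0.0121), and it was lower in the knockout than in TAC by -0.69 (adjusted p = 0.0054). Fitm1, its muscle paralogue, fell in both, from 54.5 ± 8.22 (SD, n = 3) to 38.8 ± 7.07 (SD, n = 4) and 35.9 ± 3.35 FPKM (SD, n = 3). Tmem159, which takes part in droplet formation, rose in the knockout, from 9.28 to 12.3 FPKM.

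Cidea, a protein of droplet fusion, and Fam13a rose in TAC. Cidea averaged 11.4 ± 1.51 FPKM in control (SD, n = 3) and 23.2 ± 5.38 in TAC (SD, n = 3), a difference of 0.94 (limma, adjusted p = 0.00608). Fam13a averaged 3.84 ± 1.27 FPKM in control (SD, n = 3) and 9.25 ± 2.47 in TAC (SD, n = 3), a difference of 1.08 (limma, adjusted p = 0.00557). In the knockout their levels were 15.4 ± 2.58 and 5.44 ± 0.845 FPKM (SD, n = 4), which was not called.

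The knockout call of Fitm1 was lost without control replicate 2 or 3, knockout replicate 2 or 4 or TAC replicate 1 (limma, adjusted p 0.0521 to 0.146), and its TAC call without control replicate 2 or 3 or TAC replicate 1 or 2 (0.0720 to 0.104). The call of Tmem159 was lost without any one of the controls or without knockout replicate 1 or 3 (0.0808 to 0.0980).

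Among 17 tested genes of triglyceride and sterol ester synthesis, Acsl5 rose and Agpat3, Lpin1, Acsl1, Acsl3 and Acsl6 fell in the knockout, and none was called in TAC. Acsl1, the main long-chain acyl-CoA synthetase of the heart, averaged 292 ± 12.6 FPKM in control (SD, n = 3) and 180 ± 23.7 in the knockout (SD, n = 4), a difference of -0.70 (limma, adjusted p = 0.00196). Acsl6, a synthetase of the same family, averaged 5.10 ± 0.606 FPKM in control (SD, n = 3) and 1.32 ± 0.199 in the knockout (SD, n = 4), a difference of -1.40 (limma, adjusted p = 4.7e-05), and lay at 3.55 ± 0.649 FPKM in TAC (SD, n = 3). Lpin1, which makes diglyceride from phosphatidate, averaged 42.8 ± 1.21 FPKM in control (SD, n = 3) and 31.4 ± 2.42 in the knockout (SD, n = 4). The knockout call of Agpat3 was lost without control replicate 2 or 3 or knockout replicate 4 (limma, adjusted p 0.0502 to 0.0767), and that of Acsl5 without control replicate 1 or 2 or knockout replicate 1, 2 or 4 (0.0556 to 0.0951). The knockout and control libraries of Acsl3 overlapped.

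Among 14 tested genes of fatty acid supply at the cell surface, Lpl, Vldlr, Cd36 and Slc27a1 fell in the knockout and none rose. Lpl, the lipoprotein lipase, averaged 1052 ± 222 FPKM in control (SD, n = 3) and 597 ± 79.2 in the knockout (SD, n = 4), a difference of -0.80 (limma, adjusted p = 0.00391), and lay at 1001 ± 30.3 FPKM in TAC (SD, n = 3). Cd36, a fatty acid carrier of the membrane, averaged 692 ± 5.79 FPKM in control (SD, n = 3) and 388 ± 36.1 in the knockout (SD, n = 4), a difference of -0.84 (limma, adjusted p = 0.000948), and lay at 610 ± 90.3 FPKM in TAC (SD, n = 3). Both were lower in the knockout than in TAC, by -0.75 (adjusted p = 0.0247) and -0.65 (adjusted p = 0.0206). In TAC only Slc27a1, a fatty acid transport protein, was called: it fell to 20.6 ± 3.97 FPKM (SD, n = 3), against 35.0 ± 8.36 FPKM in control (SD, n = 3).

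Among 18 tested transcription factors that respond to lipids, Srebf1 rose and Ppara, Rxra, Nr1h3 and Klf15 fell in the knockout. Rxra, the partner of PPAR receptors, averaged 11.7 ± 0.558 FPKM in control (SD, n = 3) and 7.12 ± 0.700 in the knockout (SD, n = 4) and 7.49 ± 0.900 in TAC (SD, n = 3), with adjusted p of 0.00148 and 0.00536 (limma). Klf15, a regulator of cardiac lipid use, averaged 25.7 ± 5.50 FPKM in control (SD, n = 3), 12.8 ± 1.83 in the knockout (SD, n = 4) and 14.3 ± 4.89 in TAC (SD, n = 3), with adjusted p of 0.00735 and 0.0236. Ppara averaged 23.7 ± 4.65 FPKM in control (SD, n = 3) and 14.9 ± 1.41 in the knockout (SD, n = 4). Rxra, Klf15 and Foxo3 fell in TAC.

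Several of these calls rested on single libraries or settings. The knockout call of Ppara was lost without control replicate 1 or 2 or knockout replicate 1 or 4 (limma, adjusted p 0.0508 to 0.0877), and that of Srebf1 without any one of the controls or knockout replicate 1 or 2 (0.0508 to 0.0750). The TAC calls of Slc27a1 and Klf15 were lost without control replicate 1 or 2 or TAC replicate 1, and also without TAC replicate 2 for Slc27a1 and TAC replicate 3 for Klf15, with adjusted p of 0.0688 to 0.0871. The TAC call of Foxo3 was lost when any library but control replicate 3 or TAC replicate 2 was left out (0.0503 to 0.128). The TAC libraries of Klf15 overlapped the controls. The TAC call of Fitm2 was lost with only the 2 groups compared (limma, adjusted p = 0.0533), and that of Pnpla8 without rescaling (0.0579). Of the 6 genes lower in the knockout than in TAC, Fitm2 and Acsl6 kept the call whichever library was left out, but the call of Acsl6 was lost by the most abundant transcript alone (limma, adjusted p = 0.0806). The call of Cd36 was lost without knockout replicate 3 or TAC replicate 2 or 3 (limma, adjusted p 0.0573 to 0.0866), and that of Lpl without knockout replicate 1 or 3 or any one TAC library (0.0570 to 0.0939). The call of Nceh1 was lost without any one knockout or TAC library (0.0599 to 0.136), and that of Agpat3 without any library but control replicate 1 (0.0516 to 0.144).

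**Figure D5:**
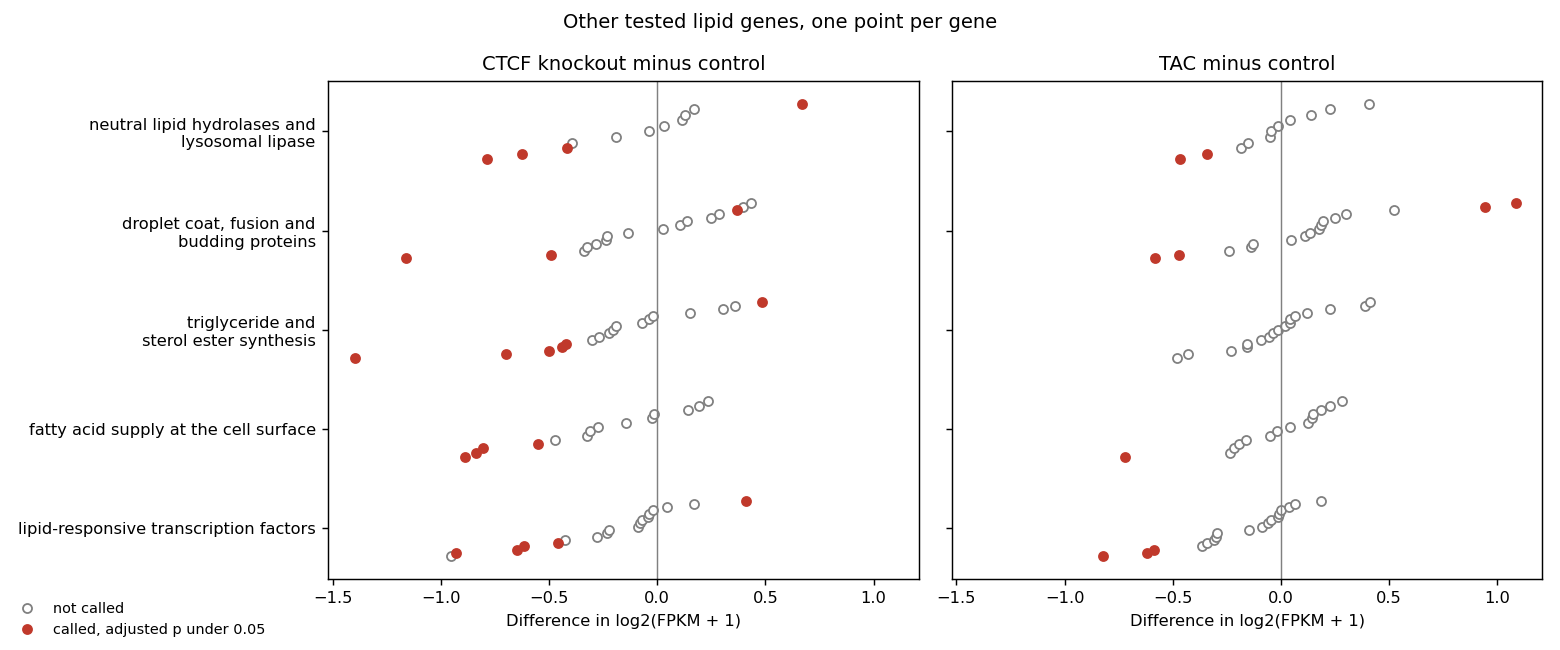
Difference from control (x axis, log2(FPKM + 1) units) of each tested gene in the 5 lists of other lipid genes (rows), for CTCF knockout (left) and TAC (right). Each point is a gene, filled where it was called; in the knockout 18 called genes lie below 0 and 4 above, and in TAC 8 lie below and 2 above.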

How the data were processed

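The deposited files list, per library, a FPKM for each of 109869 transcripts that the authors made with Cufflinks 2.2.1. TopHat2 2.1.0, Bowtie2, Cuffdiff and build mm10 are named in the submitters' processing notes. The labels name polyA RNA and also ribosomal RNA removal, so the selection of RNA is uncertain. No read counts were used, so counting error is unknown. FPKM was summed per gene ID. Set apart were 22 gene IDs with a 0 in 1 library or more but a median of at least 100 FPKM over the rest, and gene IDs with no transcript of 300 nt. Median-of-ratios scaling was applied (factors 0.912 to 1.10), and 11358 gene IDs with a mean of at least 1 FPKM were compared as log2(FPKM + 1) with limma 3.58.1 (R 4.3.3), with a trend and all 10 libraries. P-values were two-sided, adjusted by Benjamini and Hochberg over all tested gene IDs, and called under 0.05. The script was tested on simulated data. In the files, the score column was not used. The 10 genes, the lists and the tests were chosen with earlier results of these data known. Genes named were the 10, up to 4 called genes per list and comparison by adjusted p and those needed for a small count, Ces1 paralogues, defining markers and the 5 genes nearest to Ces1d. Replicates are separate mice by label. The 23 alternatives include leaving out each library.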

Additional observations from a re-analysis of the deposited data

Results flagged for a closer look

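Among the named genes with a group of 4 knockout libraries, 41 in all, the gap between the highest or lowest library and its nearest neighbour was compared with Dixon's 95% critical value, which chance passes in about 1 of 20 groups. The test picked out 2 genes. Ddhd1 lay at 6.18 FPKM in knockout replicate 2 and at 4.91 to 4.94 FPKM in the other knockout libraries. Alb was listed at 0.0219 FPKM in knockout replicate 4 and at 0 in the other 3, where any value above 0 passes, so this carries no information. None of the 10 lipase and droplet genes was picked out.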

How the results depend on the processing

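The direction of every called gene among the 10 was kept under each of the 23 alternatives in which it was tested. Ces1d and Dgat2 in the knockout, Ces1d in TAC and Lipe in the knockout kept their calls throughout. With no filter on the mean, 3 of the 10 genes were called in the knockout and 1 in TAC, against 5 and 3, and 2 of the pathway genes and 195 of all gene IDs between knockout and TAC, against 6 and 372. With a mean of at least 5 FPKM, 1487 gene IDs were called in the knockout and 1167 in TAC, against 2362 and 1755. With only the 2 groups compared, 5 pathway genes and 1127 gene IDs were called in TAC, against 10 and 1755. Without rescaling, 3 pathway genes were called between knockout and TAC. Quantile normalization called 1 of the 10 genes between knockout and TAC, and sex as a term called 1 of the 10 and 233 gene IDs. For alternatives that removed no genes or samples, the cause was not tested.

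Leaving out each library in turn gave 3 to 5 of the 10 genes, 14 to 22 pathway genes and 1689 to 2323 gene IDs in the knockout, 1 to 3, 5 to 10 and 1239 to 1656 in TAC, and 0 to 0, 2 to 7 and 133 to 443 between knockout and TAC.

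Replicate numbers do not mark shared animals, and deviations of libraries with the same number had correlations from -0.36 to 0.33. With a replicate block, 4 of the 10 genes were called in the knockout, 3 in TAC and 0 between them, with 15, 8 and 2 pathway genes and 1816, 1537 and 197 gene IDs.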
